A study of Mus musculus with 28 samples.

Results

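The Kruppel-like factors (Klf) are zinc finger transcription factors, and 10 of the 17 Klf genes in the count table were followed here across the 6 groups of the study. The 10 genes were chosen by symbol from a fixed list, namely Klf2, Klf4, Klf6, Klf7, Klf9, Klf10, Klf11, Klf13, Klf15 and Klf16, out of 50686 genes in all. Each symbol matched 1 Ensembl gene, and all 10 passed the filter on low counts. The study measured mRNA of the dorsal hippocampus of male C57Bl6 mice by RNA sequencing in 28 libraries, to compare ligands of the glucocorticoid receptor after auditory fear conditioning, a form of learning in which a tone comes to predict a foot shock. The Basal group (n = 4) had neither conditioning nor treatment. The other 5 groups were conditioned and received vehicle (Vehicle, n = 4), corticosterone (Cort, n = 5), the receptor antagonist RU486 (n = 5), or a compound known only by a code name, C108 (n = 5) or C118 (n = 5). No genotype beyond the strain is named, and the age of the mice, the doses and the time between conditioning and dissection were left unstated in the labels. Conditioning and vehicle treatment came together, so that in Vehicle against Basal they cannot be told apart. The labels do not say that every library is a separate mouse, so p-values measure the spread between libraries, which may be technical.

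Klf proteins bind GC-rich and CACCC-type DNA through their C-terminal zinc fingers and act as activators or repressors according to the cofactors that their N-terminal parts recruit. Klf9 and Klf15 are known targets of the glucocorticoid receptor in several tissues, the hippocampus among them for Klf9, and Klf9 is known for its part in the maturation of dentate gyrus neurons. Klf9, Klf13 and Klf16 recruit the corepressor Sin3a, Klf10 and Klf11 are induced by transforming growth factor beta, Klf2 and Klf4 are best known from the vessel wall, and Klf6 and Klf7 promote axon growth.

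Promoters were examined because members of the family moved in opposite directions after conditioning. The RefSeq table of promoters, on GRCm38.p6, matched 8 of the 10 genes, all except Klf10 and Klf16, and the 250 bases before the start that RefSeq gives were searched on both strands. The windows of 4 of the 8 genes overlap exons of GENCODE M21, by 102 bases in Klf7, 97 in Klf11, 29 in Klf2 and 7 in Klf6. Sequences are shown for Klf15 and Klf9, the genes that were higher after conditioning, whose windows overlap 0 exon bases. The Klf15 window is chr6:90462326-90462575 and the Klf9 window is chr19:23140976-23141225, both on the plus strand. Capitals mark the letters CACCC (the core of a Klf site), GGGCGG (a GC box), CCAAT, TGACGTCA (a cyclic AMP element) and TGTTCT (the conserved side of a glucocorticoid response element), each on either strand.
Klf15: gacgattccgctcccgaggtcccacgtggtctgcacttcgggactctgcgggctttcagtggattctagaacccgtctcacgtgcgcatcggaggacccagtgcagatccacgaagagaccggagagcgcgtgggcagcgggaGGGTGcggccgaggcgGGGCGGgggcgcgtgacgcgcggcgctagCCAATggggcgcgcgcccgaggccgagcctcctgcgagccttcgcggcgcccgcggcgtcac
Klf9: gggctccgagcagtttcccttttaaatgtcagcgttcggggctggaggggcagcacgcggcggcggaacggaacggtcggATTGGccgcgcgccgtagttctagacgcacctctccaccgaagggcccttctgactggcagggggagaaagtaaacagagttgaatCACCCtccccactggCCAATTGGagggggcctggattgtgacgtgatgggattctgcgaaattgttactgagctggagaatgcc
The Klf15 window held 1 CACCC, 1 GGGCGG and 1 CCAAT. The Klf9 window held 1 CACCC and 3 CCAAT, of which 2 overlapped each other, and 0 GGGCGG. The Klf7 window, chr1:64121390-64121639 on the minus strand, held 3 CACCC and 1 GGGCGG and lies inside the gene as GENCODE draws it. Over the 8 promoters, CACCC was in 5, GGGCGG in 7 and CCAAT in 5, against 52%, 32.7% and 33.8% of the 32851 promoters in the table. TGTTCT was in 0 of 8, against 16.1% of all promoters, and TGACGTCA was in 0 of 8, against 1.55%. The palindromic glucocorticoid response element, AGAACA and TGTTCT 3 bases apart, was in 0 of 8 and in 0.00913% of all promoters. GC content was 72% in the Klf15 window, 59.6% in Klf9 and 59.2% in Klf7, against a median of 52.4% over all promoters. These matches describe letters in a short window and say nothing about binding elsewhere.

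Library totals lay between 16.24 and 20.3 M counts (M, 10 to the power of 6), and counts over genes were turned into CPM, counts per 10 to the power of 6 on TMM-adjusted library sizes. Differences between groups are log2 fold changes from edgeR's quasi-likelihood test on all 28 libraries, adjusted by Benjamini-Hochberg over 16735 genes, with a threshold of 0.05. Libraries are named by group and by the number in their title. In the Vehicle group, some stood apart in their regional markers. Hippocampal markers summed to 755 CPM in the lowest Vehicle library (Vehicle 29), against 1122 to 1487 CPM over the other 5 groups. Thalamic markers summed to as much as 948 CPM in a Vehicle library, against 172 to 440 CPM in the other groups. Choroid plexus markers, which come with tissue of the ventricle, summed to at most 6895 CPM in RU486, 2655 in Cort, 1743 in Vehicle and 1026 in C118, against group medians of 297 to 736 CPM. Neocortical markers scored 0.18 to 0.24 in Basal, above every library of the 4 ligand groups, and 2 to 4 of 12 were lower than Basal in each of the 5 comparisons. Results in which Vehicle 16 or Vehicle 29 decide a value are given with and without them. In bulk tissue, fewer cells of a type and less RNA per cell cannot be told apart.

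Levels differed widely between the 10 genes. Compared per transcript length, as TPM with union exon lengths of the GENCODE M21 annotation, Klf9 stood first at 188 ± 26.3 TPM (SD, n = 28) and Klf13 followed at 139 ± 14.7 TPM. Klf9 was above Klf13 in 28 of 28 libraries, although their ranges overlapped, and the range of Klf13 did not overlap that of Klf16, the next gene. Klf16 (52.7 ± 10.4 TPM), Klf15 (33.6 ± 8.27), Klf10 (26.9 ± 4.71), Klf6 (20.2 ± 3.34) and Klf7 (17.3 ± 4.02) formed a middle range in which each neighbour exceeded the next in 21 to 24 of 28 libraries, so that their order was not kept in every library. Klf2 (8.04 ± 2.10 TPM), Klf11 (3.54 ± 0.529) and Klf4 (3.18 ± 0.975) were the lowest. Klf11 was above Klf4 in 19 of 28 libraries only, and these neighbours did not differ beyond their spread. The low genes rested on few reads, 26 to 92 counts per library for Klf4, 46 to 129 for Klf2 and 59 to 106 for Klf11, against 3629 to 6321 for Klf9 and 271 to 784 for Klf15.

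**Figure D1:**
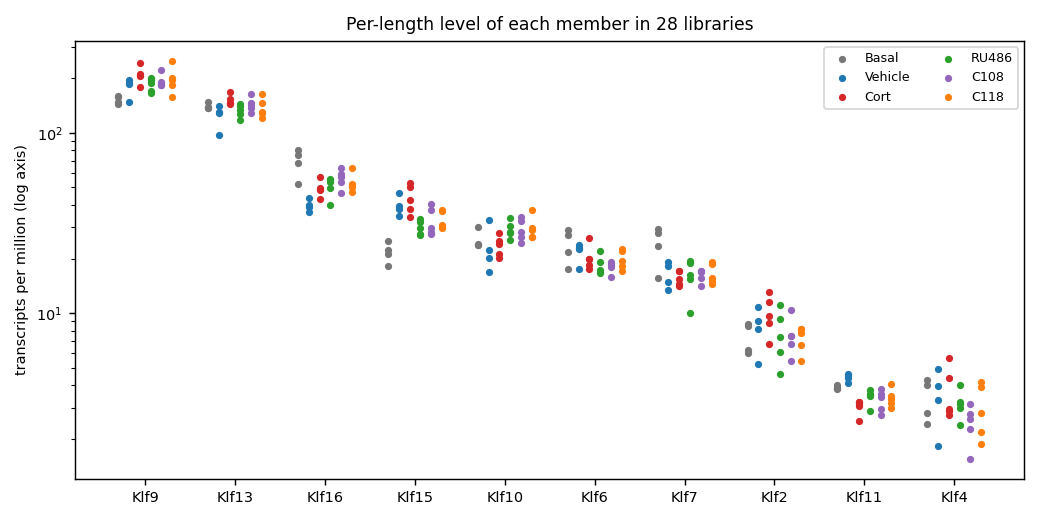
Level of each Kruppel-like factor per library in TPM on a log axis, with points for the 28 libraries of the 6 groups. Klf9 and Klf13 lie above the other 8 genes, and Klf11 and Klf4 share the lowest range.

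Against Basal, the genes that passed the test fell on both sides. In Vehicle, Klf15 rose and Klf16 fell, 2 of 10 members against 4.11% of all tested genes. In Cort, Klf15 and Klf9 rose and Klf7 and Klf16 fell, 4 of 10 against a background of 6.27%. In RU486, Klf15 and Klf9 rose and Klf7 and Klf16 fell, 4 of 10 against 5.45%. In C108, Klf15 and Klf9 rose and Klf7 fell, 3 of 10 against 6.04%, and in C118, Klf15 and Klf9 rose and 0 fell, 2 of 10 against 3.87%. All 4 RU486 calls were lost, leaving 0 of 10, without Basal 1, without Basal 14 and without Basal 27. Without Basal 1 the log2 values were 0.38 for Klf9, 0.55 for Klf15, -0.36 for Klf16 and -0.42 for Klf7. With all libraries they were 0.37, 0.56, -0.34 and -0.49. Without Basal 14 they were 0.34, 0.53, -0.27 and -0.38, and without Basal 27 they were 0.34, 0.46, -0.31 and -0.51. In these fits the edgeR adjusted p ran from 0.0504 to 0.161. The 5 comparisons with Basal share the 4 Basal libraries, so that calls seen in several of them are not independent. The libraries of the groups did not overlap for 3 members in Vehicle (10.2% of all tested genes) and 3 in Cort (10%), and for 2 members each in RU486 (10.8%), C108 (9.35%) and C118 (9.22%). At an unadjusted p under 0.05, 5 members passed in each of the 5 comparisons, against 18.1% to 22% of all tested genes. The median absolute log2 difference of the 10 members from Basal was 0.26 in Vehicle, 0.38 in Cort, 0.28 in RU486, 0.29 in C108 and 0.22 in C118. That of all tested genes was 0.14, 0.14, 0.15, 0.16 and 0.14 in the same order. In Cort, the signed median was 0.04 in the members and 0.01 in all genes. The members were chosen with earlier results of these data known, so these counts and medians are descriptions.

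Klf15, a factor of amino acid and lipid metabolism, gave the largest change of the family. It lies at 6:90462576-90475238 on the plus strand (ENSMUSG00000030087, GRCm38). In the Basal libraries it was 16.1, 20.2, 15.7 and 13.1 CPM. In Vehicle it was 34.3, 30.4, 29.8 and 29.9 CPM, so that every Vehicle library stood above every Basal one. In Cort it was 40.1, 33.8, 29, 37.1 and 25.2 CPM, the widest spread of the 6 groups. RU486 gave 24.4, 22.1, 25.3, 20.8 and 26.8 CPM, all above Basal and all below Vehicle. C108 gave 31.6, 31.9, 23, 21.3 and 20.7 CPM and C118 gave 23.4, 24.7, 30.8, 30.1 and 22.6 CPM, both reaching into the Vehicle range. All 24 conditioned libraries were above the highest Basal library.

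The rise of Klf15 over Basal was 1.02 ± 0.15 on the log2 scale (SE) in Cort, a 2.03-fold difference (edgeR adjusted p = 4.2e-05), and 0.94 ± 0.15 in Vehicle (adjusted p = 0.000373). It was 0.70 ± 0.15 in C118 (edgeR adjusted p = 0.00624), 0.66 ± 0.15 in C108 (adjusted p = 0.0081) and 0.56 ± 0.15 in RU486 (adjusted p = 0.0262). Against Vehicle, none of the 4 ligand groups passed. RU486 against Vehicle had a log2 fold change of -0.38 (95% interval -0.67 to -0.09), without overlap between the groups (unadjusted p = 0.0119, edgeR adjusted p = 0.417). Between Cort and RU486 the log2 difference was 0.47 (95% interval 0.19 to 0.74, edgeR adjusted p = 0.411). The RU486 call against Basal was lost without Basal 1, 14 or 27, or RU486 19 or 32, and with scores of thalamic and neocortical markers as covariates. The C118 call was lost with those covariates (adjusted p = 0.112).

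Klf9, the most abundant member and a thyroid hormone and glucocorticoid inducible repressor, rose less than Klf15. It lies at 19:23141226-23168134 on the plus strand (ENSMUSG00000033863). The Basal libraries gave 198, 219, 184 and 182 CPM and the Vehicle libraries 251, 248, 279 and 203 CPM. Vehicle 29, the library with the lowest hippocampal markers, was the only 1 of 24 conditioned libraries at or below the highest Basal value. Cort gave 236, 282, 278, 269.9 and 312 CPM, and RU486 gave 266, 237, 245, 248 and 271 CPM. C108 gave 259, 269, 247, 249.9 and 282 CPM and C118 gave 272, 223, 262, 275 and 317 CPM. The 4 ligand groups overlapped one another and Vehicle throughout.

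Over Basal, Klf9 rose by 0.49 ± 0.09 in Cort (log2, SE; 1.41-fold, edgeR adjusted p = 0.000954), by 0.46 ± 0.09 in C118 (adjusted p = 0.00392), by 0.41 ± 0.09 in C108 (adjusted p = 0.00816) and by 0.37 ± 0.09 in RU486 (adjusted p = 0.0181). In Vehicle the difference from Basal was 0.32 ± 0.10 and missed the threshold (edgeR adjusted p = 0.0554). Without Vehicle 29 it passed (adjusted p = 0.016), likewise without Basal 9 (0.028), as it did with DESeq2 (adjusted p = 0.025). Against Vehicle, no ligand group passed, and the log2 differences were 0.17 in Cort, 0.05 in RU486, 0.09 in C108 and 0.14 in C118. Without Vehicle 29 they were 0.09, -0.03, 0.01 and 0.06. The RU486 call was lost without Basal 1, 14 or 27, and the C108 call was lost with the endothelial marker score as a covariate (adjusted p = 0.175).

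**Figure D2:**
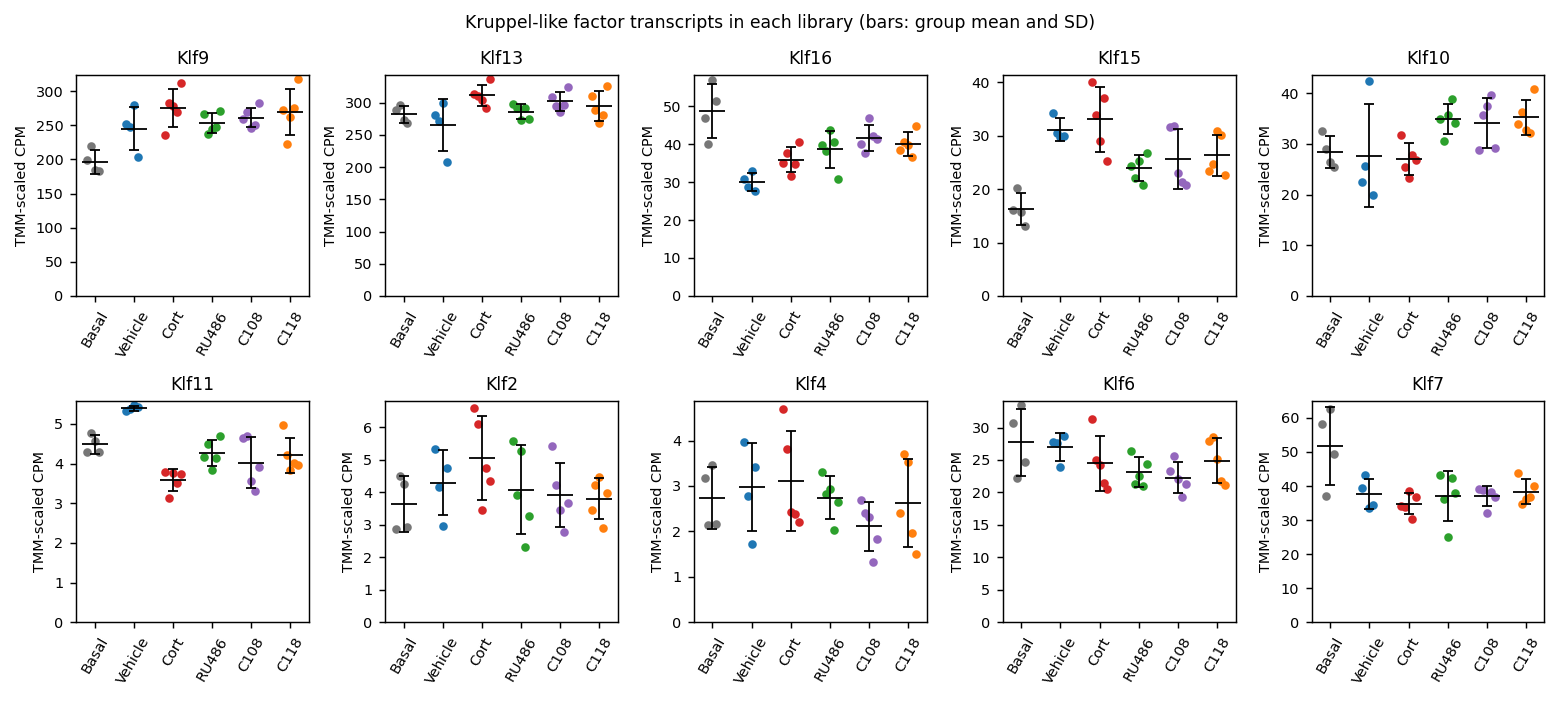
CPM of each Kruppel-like factor in every library by group, with points for libraries and bars for group means and SD. Klf15 in all 24 conditioned libraries lies above the Basal range, and Klf16 in Vehicle lies below it.

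Klf16, a repressor that recruits Sin3a as Klf9 and Klf13 do, moved the other way. It lies at 10:80567124-80577321 on the minus strand (ENSMUSG00000035397). Basal libraries gave 46.9, 40.1, 56.9 and 51.4 CPM, and Vehicle gave 30.9, 28.7, 32.8 and 27.7 CPM, without overlap. Cort gave 35, 37.7, 31.6, 34.7 and 40.5 CPM and RU486 gave 39.8, 38.3, 43.6, 40.5 and 30.8 CPM, each overlapping Basal. C108 gave 40.01, 37.5, 46.9, 42.2 and 41.4 CPM and C118 gave 38.4, 40.5, 39.8, 36.6 and 44.8 CPM, all above the highest Vehicle library. Against Basal, Klf16 fell by 0.70 ± 0.10 in Vehicle (log2, SE; edgeR adjusted p = 0.000118), by 0.44 ± 0.10 in Cort (adjusted p = 0.0041) and by 0.34 ± 0.10 in RU486 (adjusted p = 0.0375). The differences of -0.23 in C108 (edgeR adjusted p = 0.158) and -0.29 in C118 (adjusted p = 0.0911) did not pass. The RU486 call was also lost without RU486 12, 25 or 32, and the Cort call was lost with thalamic and neocortical scores as covariates (adjusted p = 0.0522).

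C108 against Vehicle was the only comparison of a ligand with Vehicle in which a member passed, and Klf16 was that member. It was 0.47 ± 0.10 higher in C108 (log2, SE; 1.39-fold, edgeR adjusted p = 0.0384), where 0.215% of all tested genes passed. The C118 difference from Vehicle was 0.41 ± 0.10 (edgeR adjusted p = 0.155), and passed with DESeq2 (adjusted p = 0.029) or without Vehicle 23 (edgeR adjusted p = 0.026). That of RU486 was 0.36 ± 0.10 (adjusted p = 0.234) and that of Cort was 0.26 ± 0.10 (adjusted p = 0.309). The C108 call did not hold without Vehicle 16 (adjusted p = 0.284) or Vehicle 29 (0.092), without both (0.835), without C108 8, 26, 34 or 39, in a fit of those 2 groups alone (0.305), or with thalamic and neocortical scores as covariates (0.356). In that comparison 3 thalamic markers, Foxp2, Rora and Vipr2, were lower in C108, and the median log2 difference over tested thalamic markers was -1.65. With the thalamic and neocortical scores the Klf16 difference was 0.43, and without Vehicle 16 and Vehicle 29 it was 0.39. Among the comparisons with Vehicle, which share its 4 libraries, 0 of 10 members passed in Cort, RU486 and C118, where 0.00598%, 0% and 0% of all genes did. At an unadjusted p under 0.05, 3 members passed in Cort (11.6% of all genes), 4 in RU486 (8.16%), 5 in C108 (17.4%) and 3 in C118 (8.01%). The groups did not overlap for 1 member in Cort (2.95% of all genes), and for 2 each in RU486 (1.82%), C108 (3.13%) and C118 (1.35%).

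Klf13, which also recruits Sin3a and is next to Klf9 in level, differed little. It lies at 7:63886351-63938915 on the minus strand (ENSMUSG00000052040). Group means were 282 ± 13.3 CPM in Basal (SD, n = 4), 265 ± 39.8 in Vehicle (n = 4), 311 ± 16.6 in Cort (n = 5), 286 ± 11.4 in RU486 (n = 5), 302 ± 15.3 in C108 (n = 5) and 295 ± 22.9 in C118 (n = 5). Vehicle 29 was the lowest of all 28 libraries at 208 CPM, and the other Vehicle libraries gave 281, 272 and 299.7 CPM. The largest difference was Cort over Vehicle, at a log2 of 0.23 ± 0.08 (unadjusted p = 0.00667, edgeR adjusted p = 0.249). Without Vehicle 29 it was 0.13 (edgeR adjusted p = 0.798), and without Vehicle 16 and Vehicle 29 it was 0.10. Over 28 libraries the log2 CPM of Klf13 followed the mean score of hippocampal markers (the mean of their centred log2 CPM) with a Pearson r of 0.82 and a Spearman rho of 0.59. Without Vehicle 16 and Vehicle 29, the libraries farthest from the median score, r was 0.58.

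Klf11 and Klf10, the pair induced by transforming growth factor beta, parted. Klf11, at 12:24651274-24662789 on the plus strand (ENSMUSG00000020653), was 4.3, 4.77, 4.57 and 4.29 CPM in Basal and 5.32, 5.39, 5.47 and 5.42 CPM in Vehicle, which was the tightest group of the gene. Cort gave 3.78, 3.12, 3.77, 3.51 and 3.73 CPM, below every Basal and every Vehicle library. RU486 gave 4.18, 4.49, 3.83, 4.15 and 4.69 CPM, C108 gave 4.65, 4.71, 3.56, 3.3 and 3.91 CPM, and C118 gave 4.97, 4.23, 3.84, 4.02 and 3.97 CPM. In all 4 ligand groups every library was below the lowest Vehicle library. The Vehicle SD was 1.16% of the mean on 98 to 106 counts per library, which is below counting noise. It therefore does not measure the spread between libraries, and the lack of overlap with Vehicle rests on it in part. Vehicle itself was 0.27 ± 0.12 above Basal (log2, SE; edgeR adjusted p = 0.23), without overlap. None of these differences passed over all genes: Cort against Vehicle was -0.59 ± 0.12 (log2, SE; unadjusted p = 2.17e-05, edgeR adjusted p = 0.0853), the gene with the third smallest p of that comparison, in which 0.00598% of genes passed. The others were -0.42 in C108 (edgeR adjusted p = 0.0899), -0.36 in C118 (adjusted p = 0.33) and -0.34 in RU486 (adjusted p = 0.375). With DESeq2, Cort against Vehicle passed (adjusted p = 0.012), as it did without Vehicle 3 (0.039) or Vehicle 23 (0.024).

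Klf10, at 15:38291463-38300706 on the minus strand (ENSMUSG00000037465), passed in no comparison. Vehicle spread most, with 22.5, 25.7, 42.4 and 20.01 CPM, and Vehicle 23 was above all other libraries of the study. Basal gave 32.6, 29, 26.4 and 25.4 CPM and Cort gave 31.7, 25.4, 23.3, 27.8 and 26.8 CPM. RU486 gave 35, 30.6, 35.7, 38.8 and 34.1 CPM, C108 gave 28.8, 35.6, 37.4, 39.6 and 29.2 CPM, and C118 gave 34, 36.3, 32.8, 32.2 and 40.8 CPM. The C118 libraries were all above the Cort libraries, with a log2 difference of Cort against C118 of -0.38 (95% interval -0.67 to -0.10, unadjusted p = 0.00992, edgeR adjusted p = 0.927). Against Vehicle, the log2 differences were 0.34 in RU486 (edgeR adjusted p = 0.543), 0.31 in C108 (0.283) and 0.35 in C118 (0.55). Without Vehicle 23 they were 0.62, 0.59 and 0.63 and all passed, with edgeR adjusted p of 0.007, 0.006 and 0.005. That library therefore decides these values.

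Klf7 and Klf6, known for axon growth and regeneration, were lower in conditioned groups or did not pass. Klf7, at 1:64029447-64122282 on the minus strand (ENSMUSG00000025959), spread widely in Basal, with 58.1, 36.9, 62.7 and 49.3 CPM. Vehicle gave 39.6, 43.1, 33.5 and 34.3 CPM, and Cort gave 34.2, 33.8, 38.6, 30.4 and 36.8 CPM. RU486 gave 43.4, 36.2, 25.1, 42.3 and 38 CPM, C108 gave 39.1, 38.8, 32, 38.2 and 36.7 CPM, and C118 gave 43.9, 34.7, 36.1, 36.9 and 40.1 CPM. Basal 9, at 36.9 CPM, lay within every conditioned group, and 13 of the 24 conditioned libraries were below it. Klf7 fell by 0.57 ± 0.13 in Cort (log2, SE; edgeR adjusted p = 0.00598), by 0.49 ± 0.13 in RU486 (adjusted p = 0.0289) and by 0.49 ± 0.13 in C108 (adjusted p = 0.0257). In Vehicle the log2 difference was -0.46 ± 0.14 (edgeR adjusted p = 0.056) and in C118 it was -0.43 ± 0.13 (adjusted p = 0.0589). The C118 difference passed with DESeq2 (adjusted p = 0.0353), without Basal 9 (0.00698) and without C118 7 (0.0458). Without Basal 9 the Vehicle difference passed (adjusted p = 0.006), and without Basal 14 the Cort call was lost (adjusted p = 0.0527). The C108 call was lost without Basal 1, Basal 14, C108 26 or C108 39, and the RU486 call also without RU486 12 or 19. Both calls were lost with thalamic and neocortical scores as covariates (edgeR adjusted p = 0.124 in C108 and 0.139 in RU486). The same held with the endothelial score (0.205 and 0.0538). In a fit of RU486 and Basal alone, the RU486 call was lost as well (edgeR adjusted p = 0.121).

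Klf6, at 13:5861482-5870394 on the plus strand (ENSMUSG00000000078), ranged from 22.2 to 33.4 CPM in Basal and from 19.2 to 31.3 CPM over the conditioned libraries, and 9 of those 24 were below the lowest Basal library. Its largest difference from Basal was -0.32 ± 0.12 in C108 (log2, SE; edgeR adjusted p = 0.124). Without Basal 9 it was -0.41 and passed (adjusted p = 0.0486), and with the endothelial score as a covariate it was -0.05. With the choroid plexus score, Klf6 in RU486 was -0.35 and passed (adjusted p = 0.0493). Klf2, at 8:72319033-72321656 on the plus strand (ENSMUSG00000055148), and Klf4, at 4:55527143-55532466 on the minus strand (ENSMUSG00000003032), are induced by shear stress in endothelium. Klf2 ranged from 2.33 to 6.60 CPM and Klf4 from 1.32 to 4.71 CPM over all libraries. Klf2 was 0.47 ± 0.23 higher in Cort than in Basal (95% interval -0.01 to 0.95, edgeR adjusted p = 0.264). For Klf4 the interval of Vehicle against Basal ran from -0.46 to 0.71, so that a difference of either sign was not detectable with this spread between libraries. Klf4 in C108 was -0.37 against Basal (edgeR adjusted p = 0.438) and 0.28 with the endothelial score as a covariate (adjusted p = 0.667).

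**Figure D3:**
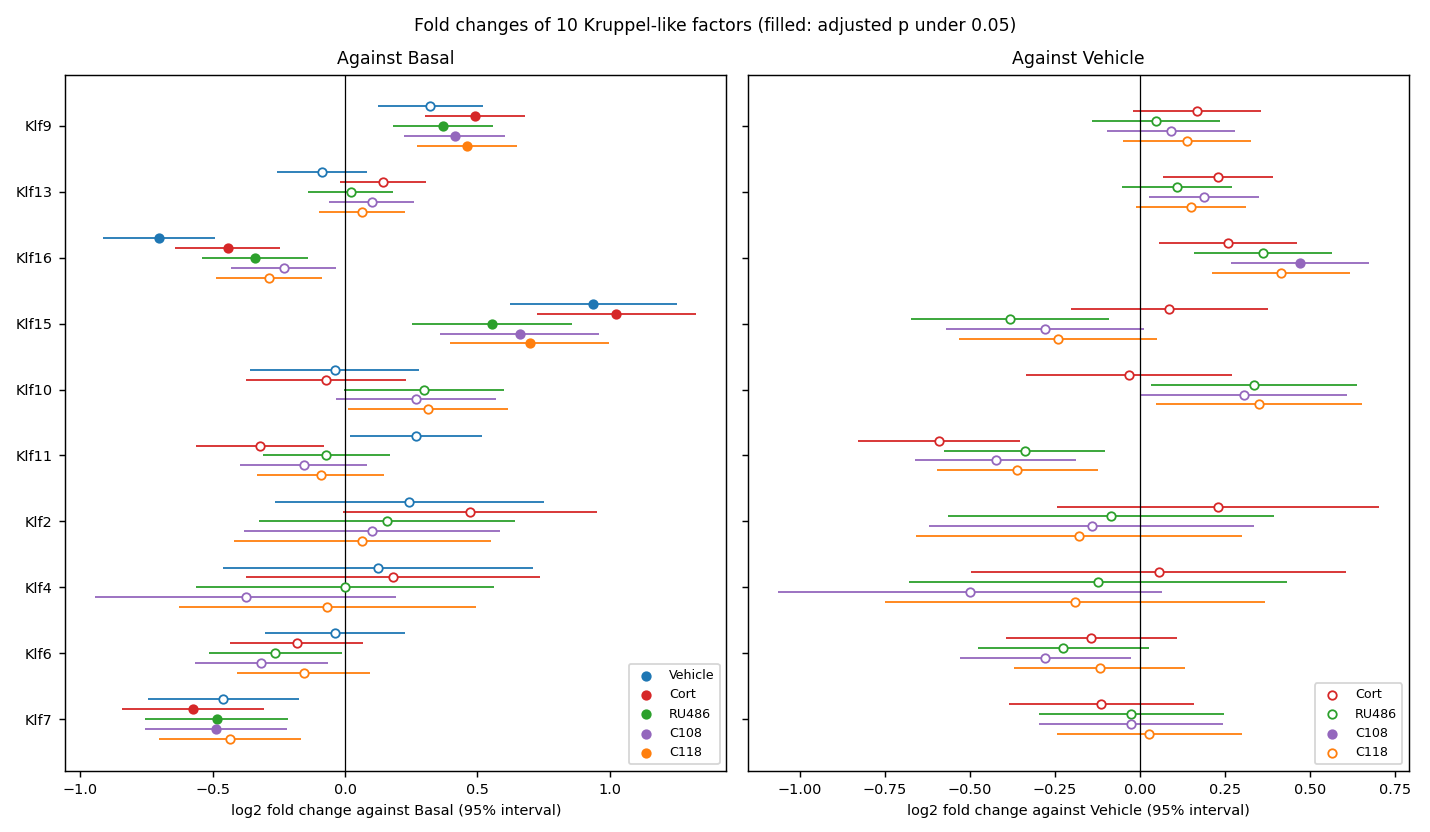
Log2 fold change of each Kruppel-like factor against Basal and against Vehicle, with bars for the 95% interval and filled points for an edgeR adjusted p under 0.05. Klf15 and Klf9 lie to the right of 0 against Basal in all 5 groups, and Klf16 against Vehicle is filled only for C108.

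The 6 pairs of ligand groups were compared with each other for all 10 genes, at unstated doses. With edgeR, 0 of 10 members passed in each of the 6 pairs, where 0.0538% of all genes passed between Cort and RU486 and 0% in the others. At an unadjusted p under 0.05, 3 members passed between Cort and RU486 (Klf10, Klf11 and Klf15, against 5.34% of all genes), 4 between Cort and C108 (4.88%) and 3 between Cort and C118 (4.26%). The count was 0 for C108 against RU486 (5.74%), for C118 against RU486 (1.83%) and for C108 against C118 (2.4%). The libraries did not overlap for 1 member between Cort and RU486 (1.12% of all genes), 0 between Cort and C108 (0.854%), 2 between Cort and C118 (0.813%), and 0 for C108 against RU486 (0.813%), C118 against RU486 (0.233%) and C108 against C118 (0.323%). DESeq2 also gave 0 in each of the 6 pairs. For C108 against C118, the log2 difference of Klf15 was -0.04 with an interval of -0.31 to 0.24, that of Klf9 was -0.05 (-0.22 to 0.13) and that of Klf16 was 0.06 (-0.13 to 0.24). Differences within those intervals could not be told from 0, which does not show that the compounds act alike. For Klf15, Cort exceeded C108 by 0.37 (0.09 to 0.64, edgeR adjusted p = 0.83) and C118 by 0.33 (0.05 to 0.60, adjusted p = 0.999).

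Genes around the family were read from lists chosen with earlier results of these data known, and their counts are descriptions. Of 16 other Klf and Sp genes, 12 were tested, and 0 rose in any of the 5 comparisons with Basal. Klf3, a repressor that recruits Ctbp proteins, fell in Vehicle from 57.6 ± 6.83 to 43.4 ± 7.94 CPM (SD, n = 4 and 4; log2 -0.41, edgeR adjusted p = 0.0251). Sp8 fell in Cort (-0.90, edgeR adjusted p = 0.0442) and in C108 (-1.03, adjusted p = 0.0236), and Sp7 fell in C108 (-1.74, adjusted p = 0.00979), from Basal means of 1.86 and 1.67 CPM. Of 11 cofactors and ubiquitin ligases, Ctbp2, a corepressor bound by Klf3 and others, fell in each of the 4 ligand groups, by 0.41 in Cort, 0.40 in RU486, 0.42 in C108 and 0.43 in C118, and 0 passed in Vehicle. Of 10 genes reported as Klf targets, Maoa, a monoamine oxidase, fell in Cort (-0.33, edgeR adjusted p = 0.0143), and the endothelial genes Thbd (-1.54, adjusted p = 0.004) and Nos3 (-1.01, adjusted p = 0.0351) fell in C108. In Vehicle, RU486 and C118, 0 of these 10 passed.

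Among 10 upstream regulators, Nr3c1, the glucocorticoid receptor, fell in all 5 groups against Basal, from 118.01 ± 14.5 CPM in Basal to 82.7 ± 3.78 in Vehicle (log2 -0.51, edgeR adjusted p = 0.00135) and to 77.1 ± 4.41 in Cort (-0.61, adjusted p = 4.68e-05). Nr3c2, the mineralocorticoid receptor, and Mapk7, the kinase above Klf2 and Klf4 in endothelium, fell in Vehicle by 0.50 and 0.36 and did not pass in the 4 ligand groups. Nr3c2 was 261 ± 76.8 CPM in Vehicle and 369 ± 11.2 CPM in Basal (SD, n = 4 and 4). Without Vehicle 29, neither passed, at -0.36 for Nr3c2 (edgeR adjusted p = 0.152) and -0.31 for Mapk7 (adjusted p = 0.13), while Nr3c1 was -0.50 and still passed (adjusted p = 0.00499). Of 15 glucocorticoid receptor targets, 14 rose in Vehicle, 14 in Cort, 7 in RU486, 13 in C108 and 13 in C118 against Basal, with medians of 0.95, 1.05, 0.69, 0.83 and 0.86, where the medians over all tested genes were at most 0.01. Fkbp5, a chaperone that restrains the receptor, rose from 67.5 ± 9.53 to 130.2 ± 12.97 CPM in Vehicle. Between Cort and RU486 the targets Fkbp5 (0.56, edgeR adjusted p = 0.00557), Cdkn1a (1.83, adjusted p = 0.00557) and Zbtb16 (0.50, adjusted p = 0.0385) were higher in Cort, 3 of 15, while Klf15 (0.47) and Klf9 did not pass. Immediate early genes gave 0 of 12 against Basal in all 5 groups. Of 14 clock genes, 3 passed in Vehicle, 1 in Cort and 6 each in RU486, C108 and C118. Of all tested genes, 4.11% passed in Vehicle, 6.27% in Cort, 5.45% in RU486, 6.04% in C108 and 3.87% in C118. The clock genes that passed in Vehicle were mixed, with Arntl (-0.49) and Cry2 (-0.32) lower and Nr1d2 (0.39) higher. In Cort, Ciart was higher (0.76).

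Across the 28 libraries some pairs of members varied together. These correlations are descriptions, since the libraries share 6 groups, and they were picked from 45 pairs and 190 relations with list scores after their values were seen. Klf4 and Klf6 had a Pearson r of 0.75, and 0.82 after group means were removed. Klf2 and Klf4 had 0.67 and 0.69, and Klf9 and Klf13 had 0.60 and 0.69. Klf15 and Klf16 ran against each other, with -0.74, and -0.48 after group means were removed. The pairs did not close into sets, since Klf2 and Klf6 had only 0.32 and 0.44. Klf2 and Klf15 had 0.54 and 0.54, and Klf7 and Klf15 had -0.60 and -0.26.

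Klf15 followed the mean score of the 15 receptor targets, none of which is a Klf gene, with a Pearson r of 0.94 and a Spearman rho of 0.92. It was 0.84 after group means were removed, 0.91 without Basal 1 and Basal 27, the farthest libraries, and 0.89 over the 24 conditioned libraries alone. The genes whose log2 CPM was most like that of Klf15 over 28 libraries were Mxd4 (r = 0.94), Arrdc2 (0.94) and Tsc22d3 (0.93), the last of which is in the target list. For Klf9 they were Dhx33 (0.87), Olfml2b (0.87) and Spsb1 (0.85), for Klf7 Flrt2 (0.91), Lrrtm2 (0.87) and Fbxo32 (0.84), and for Klf16 Sall2 (0.86), Rtn4rl2 (0.85) and BC030500 (0.82). Klf9 followed the target score over all libraries (0.63) but not within groups (-0.06), and Klf16 ran against it (-0.73 and -0.51).

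**Figure D4:**
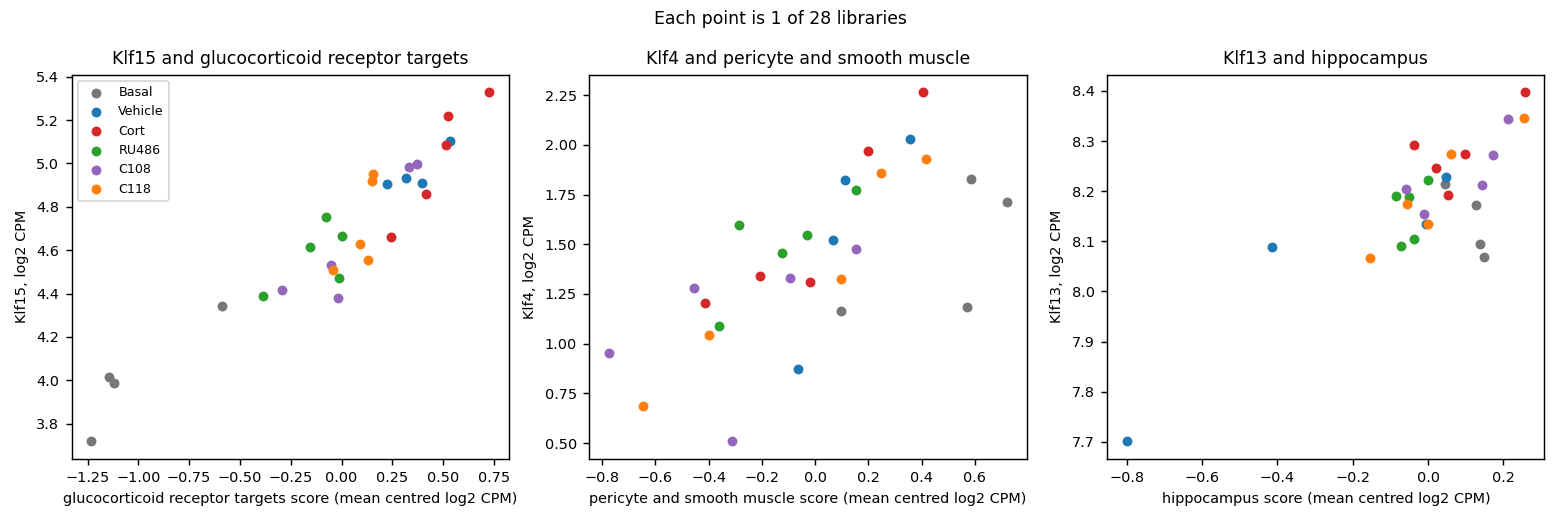
Log2 CPM of Kruppel-like factors against list scores, 1 point per library and colours for the 6 groups. Klf15 rises with the receptor target score (r = 0.94), Klf4 rises with the vascular score, and Klf13 against the hippocampal score has Vehicle 29 at its lowest end.

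Vessel markers moved with Klf4 and Klf6, and so did markers of meningeal fibroblasts and blood. Klf4 followed the pericyte and smooth muscle score with r = 0.69 (0.79 after group means were removed) and the endothelial score with 0.70 (0.73), and Klf6 followed them with 0.79 (0.73) and 0.73 (0.68). The meningeal fibroblast score gave 0.77 (0.75) for Klf4 and 0.73 (0.71) for Klf6. The blood score gave 0.65 (0.57) for Klf4 and 0.59 (0.68) for Klf6. Klf9 ran against the pericyte score (-0.70, and -0.58 within groups). The summed endothelial markers ranged over 271-341 CPM (Basal), 261-374 (Vehicle), 195-418 (Cort), 202-332 (RU486), 148-350 (C108) and 147-316 (C118). Of 18 endothelial markers, 1 rose and 7 fell in C108 against Basal, 1 rose and 5 fell in C118, 2 rose and 4 fell in Cort, 1 rose and 2 fell in RU486, and 1 rose and 1 fell in Vehicle. Of all tested genes, 6.04% passed in C108, 3.87% in C118, 6.27% in Cort, 5.45% in RU486 and 4.11% in Vehicle. Differences between the marker counts of the groups were not tested. Pericyte markers summed to 110 to 152 CPM in Basal and 59.2 to 112 CPM in C108. No marker of these lists was at 0 in all libraries. Klf2 followed the vessel scores less than Klf4 and Klf6 did, with r = 0.30 (0.43 after group means were removed) for endothelium and 0.27 (0.44) for pericytes and smooth muscle. Its r with the receptor target score was higher, at 0.50 (0.67). The part of vessel content in the values of Klf2, Klf4 and Klf6 was not tested beyond the fits with an endothelial score. Klf6 and Klf7 followed the choroid plexus score within groups (r = 0.53 and 0.47, against 0.42 and 0.22 over all libraries).

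Astrocyte markers, given because Klf15 is known from glia, moved with it in part. Klf15 followed their score with r = 0.42, and 0.60 after group means were removed. This was not particular to astrocytes. After group means were removed, r was 0.52 for microglia, 0.47 for oligodendrocytes, 0.47 for endothelium and -0.52 for neurons. Over all 28 libraries these were 0.11, -0.15, -0.03 and -0.36. The astrocyte score was -0.11 to 0.01 in Basal and 0.02 to 0.25 in Vehicle, without overlap. The summed astrocyte markers were 5593 to 6632 CPM and 6084 to 7745 CPM, which overlapped. Of 15 astrocyte markers, 1 rose in Vehicle and 14 had a positive log2 difference, with a median of 0.15. With the astrocyte score as a covariate, Klf15 rose by 0.82 in Vehicle (edgeR adjusted p = 0.000226), and it passed in the other 4 comparisons with Basal too, with the largest adjusted p at 0.0081 in RU486.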

How the data were processed

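Per the labels, dorsal hippocampi were dissected, RNA was extracted with a NucleoSpin kit, and stranded mRNA libraries were sequenced on a DNBseq instrument. The authors deposited raw counts per Ensembl gene, made with HTSeq 0.6.1 on mm10 per the submitters' processing notes, which also name FastQC and MultiQC. No source used here states the aligner, annotation release or strand setting. The 5 summary rows, 12.6% to 19.7% of each column's total, name no gene and were left out, and 0 columns lacked a sample. Library totals of 16.24 to 20.3 M counts set the precision, and no pair of libraries agreed within counting noise (lowest chi-square per degree of freedom 5.94).

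The members and gene lists were chosen with earlier results of these data known. From the deposited counts, edgeR 4.0.16 (R 4.3.3) fitted 1 robust quasi-likelihood model to the 28 libraries, with TMM scaling and filterByExpr (minimum count 10, minimum total 15), which left 16735 genes. The SE is the absolute log2 fold change over the square root of F, and 15 contrasts were adjusted by Benjamini-Hochberg over all tested genes. CPM values were not tested themselves. TPM used union exon lengths of GENCODE M21. Named genes were the 10 members, list genes that passed (strongest first where many did), and for members that passed, the 3 genes with the highest Pearson r of log2 CPM. The test was tried on simulated counts, and alternatives were DESeq2 1.42.0, size factor scaling (RLE), no or a stricter filter, fits of 2 groups, marker scores as covariates, and leaving out libraries.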

Additional observations from a re-analysis of the deposited data

Results flagged for a closer look

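Klf15 in Vehicle 3 was 34.29 CPM, set apart from the other Vehicle libraries, which lay between 29.8 and 30.4 CPM, by more of the group's range than Dixon's 95% value allows. It was the only 1 of 60 gene and group sets with such a value, and chance gives about 1 in 20.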

How the results depend on the processing

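Of 2950 gene values under other settings, 2870 kept their side of the threshold, 51 no longer passed, 29 newly passed and 0 that passed in either fit changed sign. Of the 2870, 147 that passed in neither fit changed sign, none with an absolute log2 value over 0.375. Klf15 in Vehicle, Cort and C108, Klf16 in Vehicle, and Klf9 in Cort and C118, all against Basal, passed in every fit run. With DESeq2, 4 members passed in Vehicle against Basal, 3 in C118 against Basal, 1 in Cort against Vehicle and 1 in C118 against Vehicle. In fits of 2 groups alone, 2 passed in RU486 against Basal and 0 in C108 against Vehicle. With thalamic and neocortical scores, 0 passed in RU486 against Basal, 1 in C118 against Basal and 0 in C108 against Vehicle, and without Vehicle 16 and Vehicle 29, 0 passed in C108 against Vehicle. Of covariates chosen after seeing the data, the astrocyte score gave 0 in C108 against Vehicle, and the endothelial score gave 1 in C108 against Basal, 1 in Cort against Vehicle and 0 in C108 against Vehicle. The hippocampal score gave 0 in C108 against Vehicle, and the choroid plexus score gave 4 in Vehicle against Basal and 0 in C108 against Vehicle. The cause of these changes was not tested.

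Without 1 library at a time, Vehicle against Basal had 2 to 4 members that passed, Cort had 3 to 4, RU486 had 0 to 4, and C108 and C118 each had 2 to 4. Against Vehicle, Cort and RU486 each had 0 to 1 and C108 and C118 each had 0 to 2, and the 6 ligand pairs had 0 throughout. The 4 RU486 calls were all lost without Basal 1, without Basal 14 and without Basal 27. No paired analysis was run, because no sample number recurs between groups and the labels name no batch. Cort 36, C118 38 and C108 39, the highest-numbered libraries of their groups, gave the highest Klf9 and Klf13 of those groups. They also gave the lowest Klf15, at 25.2, 22.6 and 20.7 CPM. The highest-numbered libraries of the other groups did not follow this pattern. Basal 27 and Vehicle 29 gave the lowest Klf9 and Klf13 of their groups. RU486 32 gave the highest Klf9 of its group and also the highest Klf15, at 26.8 CPM. Basal 27 gave the lowest Klf15 of Basal, at 13.1 CPM. Whether the sample numbers follow an order of handling was not tested. Klf4, Klf2 and Klf11 rested on at most 129 counts per library. The biological coefficient of variation in the fit was 0.258 for Klf4, 0.224 for Klf2 and 0.0837 for Klf11.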
